A study of Sus scrofa with 6 samples.

Results

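Macrophage and leukocyte marker genes were followed in RNA libraries of cultured granulosa cells of the pig (Sus scrofa), which line the ovarian follicle and nourish its oocyte. The 10 genes LYZ, CD163, PTPRC, AIF1, LAPTM5, FCER1G, CD68, CD14, CD53 and CSF1R were chosen by symbol, and each symbol matched 1 of the 35670 Ensembl identifiers in the deposited count table. The heat libraries (n = 3) came from primary cultures moved to 42 °C for a 6 h challenge, and the control libraries (n = 3) from cultures left at 37 °C for the same time. Both groups were aspirated from small healthy follicles, collected by centrifuging the follicular fluid, and grown in medium with fetal bovine serum and penicillin-streptomycin. The labels name no sorting step that would remove blood cells, and they do not say whether the libraries of a group came from separate animals or cultures, so the p-values measure only the spread between these libraries.

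Macrophages are tissue-resident phagocytes that arise from embryonic precursors and from blood monocytes, and they depend on signalling through the receptor encoded by CSF1R. In the ovary they lie mainly outside the follicle wall and take part in follicle atresia, ovulation and the clearance of the corpus luteum. A marker gene of a cell type is one whose RNA is abundant in that type and scarce in the others, so its reads in a bulk library follow both the number of such cells and the RNA each of them holds. A change in the number of these cells and a change in the RNA per cell cannot be told apart in the libraries described here.

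The libraries held between 20411952 and 29606378 counts in heat and between 18711440 and 22599356 in controls. Levels are given as CPM, counts normalised to library size and, by TMM factors, to library composition. At these depths a gene with 0 reads can lie at up to 0.0916 to 0.200 CPM, the level of 3 reads, and this limit covers counting error only. Libraries were not equally alike across the 14242 tested genes. On the log2 CPM scale heat 1 and heat 2 correlated at 0.991 and control 2 and control 3 at 0.990, but heat 3 correlated with heat 1 and heat 2 at 0.916 and 0.909, and control 1 correlated with control 2 and control 3 at 0.901 and 0.905. Of the granulosa cell markers, INHA had 0 to 2 reads in a heat library and 0 to 7 in a control library, FSHR had 0 to 2 and 6 to 49, and AMH had 3 to 6 and 0 to 3. Several markers of the labelled cell type thus had few reads, and CYP19A1 and FOXL2, also listed, matched no symbol. Other listed genes were well above 0. INHBA had 154 to 183 CPM in heat libraries and 198 to 386 CPM in control libraries, and SERPINE2 had 411 to 655 and 185 to 700 CPM. CYP11A1, the enzyme that starts steroid synthesis, had 57.6 to 69.4 CPM in heat libraries and 29.0 to 43.9 CPM in control libraries.

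Of the 10 marker genes, 8 (all but CD14 and CD68) were higher in control 2 and control 3 than in the other libraries. They had 0 to 17 reads in control 1 and in each heat library. In control 3 they spanned 0.544 CPM (CSF1R) to 54.1 CPM (LYZ), with CD163 next at 5.00 CPM. Summed over the 10 genes, the level was 4.43, 2.88 and 1.31 CPM in heat 1, 2 and 3, against 3.40, 37.2 and 74.4 CPM in control 1, 2 and 3. The group means were 2.87 ± 1.56 CPM in heat and 38.3 ± 35.5 CPM in controls (SD, n = 3 each). Control 1 thus lay inside the range of the heat libraries, and the control SD was nearly as large as the control mean. The difference of the means, heat minus control, was -35.4 CPM, and it was -17.4 CPM without control 3 and -8.94 CPM without LYZ. Of the 10 genes, 6, 5 and 5 had reads in heat 1, 2 and 3, against 5 in control 1 and all 10 in control 2 and control 3.

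**Figure D1:**
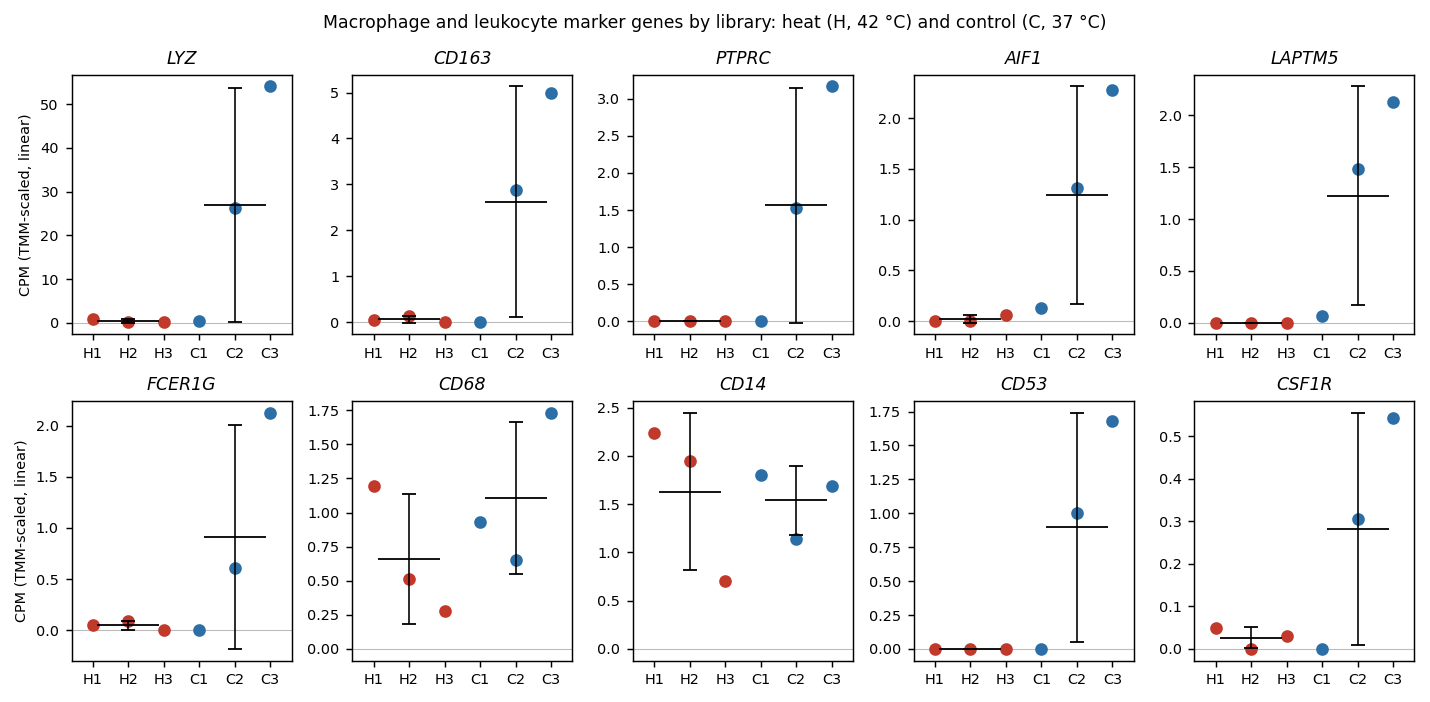
CPM (TMM-scaled, linear axis with its own range in each panel) of the 10 marker genes in the heat libraries (H1 to H3, red) and the control libraries (C1 to C3, blue), with the group mean and SD in black (n = 3). In 8 panels C2 and C3 stand above the other 4 libraries, whereas CD14 and CD68 show groups that overlap, with CD14 at 2.24 CPM in H1 and 1.13 CPM in C2.

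LYZ encodes lysozyme, a secreted enzyme that cuts bacterial cell walls and is made in quantity by macrophages and neutrophils. It lies on chromosome 5 at 33612593 to 33618953 of Sscrofa11.1 (RefSeq, matched by symbol, as are the positions of the other genes). It had 17, 4 and 8 reads in heat 1, 2 and 3, against 7, 602 and 1092 reads in control 1, 2 and 3. In CPM these were 0.846, 0.186 and 0.244 in heat, and 0.467, 26.3 and 54.1 in controls. Control 1 lay between heat 1 and heat 3, so the groups overlapped, and the high control level came from control 2 and control 3. The mean was 0.425 ± 0.366 CPM in heat and 26.9 ± 26.8 CPM in controls (SD, n = 3 each). On the log2 scale the difference, heat minus control, was -6.01 ± 1.48 (SE) and passed narrowly (edgeR quasi-likelihood test, Benjamini-Hochberg adjusted p = 0.0447). Without control 1 it was -6.62 ± 0.69 (edgeR adjusted p = 0.00579). Without control 2, control 3, heat 1, heat 2 or heat 3 the edgeR adjusted p lay between 0.0742 and 0.158 and LYZ was not called. In these fits, other than that without heat 3, edgeR called 0% of all tested genes lower, so the missing call there is not particular to LYZ. With all 6 libraries and without the filter on low counts, LYZ was not called either (edgeR adjusted p = 0.118). DESeq2 called it (adjusted p = 2.94e-06) and limma-voom did not (adjusted p = 0.173).

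CD163, on chromosome 5 at 63300200 to 63334497, is the scavenger receptor by which macrophages take up haemoglobin bound to haptoglobin. It had 1, 3 and 0 reads in heat 1, 2 and 3, against 0, 66 and 101 reads in control 1, 2 and 3, or 0.0498, 0.139 and 0 CPM in heat and 0, 2.88 and 5.00 CPM in controls. Control 1, with no read, was as low as heat 3. FCER1G, on chromosome 4 at 89242467 to 89246344, encodes the signalling chain shared by Fc receptors, which bind antibodies. It had 1, 2 and 0 reads in heat, against 0, 14 and 43 reads in controls. Its control 3 level, 2.13 CPM, stood well above the 0.610 CPM of control 2.

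CSF1R, on chromosome 2 at 151102138 to 151130311, encodes the receptor for the macrophage growth factors CSF1 and IL34. It had 1, 0 and 1 reads in heat and 0, 7 and 11 reads in controls, the fewest of the 10 genes. Its highest level was 0.544 CPM, in control 3. Reads as few as these place control 2 and control 3 above the rest but give little precision, with an exact Poisson 95% interval of 0.272 to 0.974 CPM for control 3.

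PTPRC encodes CD45, a receptor phosphatase carried by leukocytes at large, and CD53 encodes a tetraspanin of leukocytes. PTPRC, on chromosome 10 at 21482984 to 21601627, had 0 reads in each heat library, against 0, 35 and 64 reads in control 1, 2 and 3. CD53, on chromosome 4 at 109306552 to 109335876, had 0 reads in each heat library, against 0, 23 and 34 reads in controls. For both genes control 1 was at 0 as well, so it did not differ from the heat libraries at this depth. Pooled over the libraries of a group and set against 3 reads over the heat group, PTPRC was at least 42.2-fold lower and CD53 at least 24.3-fold lower in heat than in controls, bounds that cover counting error only and rest on control 2 and control 3.

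LAPTM5, a lysosomal membrane protein of blood cells, and AIF1, an actin-binding protein of macrophages and microglia also called IBA1, showed a like pattern. LAPTM5, on chromosome 6 at 87363911 to 87390371, had 0 reads in each heat library, against 1, 34 and 43 reads in controls, and was at least 33.3-fold lower in heat by the same bound. AIF1 had 0, 0 and 2 reads in heat, against 2, 30 and 46 reads in controls. AIF1 lies on chromosome 7 at 23711752 to 23731191, a span that overlaps LST1 and NCR3 in RefSeq, and no source used here states whether counting used the strand, so the assignment of its reads is uncertain. These were the 2 of 10 genes whose CPM did not overlap between the groups, by a margin of 1 read in control 1 for LAPTM5 and of equal read numbers in heat 3 and control 1 for AIF1. Of the 25766 identifiers with at least 1 read, 27% had groups that did not overlap, so 2 of 10 is not a result about these genes.

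CD14 and CD68 did not follow the others. CD14, on chromosome 2 at 142348036 to 142349686, encodes the co-receptor that passes bacterial lipopolysaccharide to TLR4. It had 45, 42 and 23 reads in heat 1, 2 and 3, against 27, 26 and 34 reads in control 1, 2 and 3, or 2.24, 1.95 and 0.702 CPM in heat and 1.80, 1.13 and 1.68 CPM in controls. The highest and the lowest value were both from heat libraries. The mean was 1.63 ± 0.817 CPM in heat and 1.54 ± 0.356 CPM in controls (SD, n = 3 each), and the log2 fold change of 0.08 ± 0.53 did not pass (edgeR adjusted p = 0.930) and took either sign depending on the setting.

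CD68, on chromosome 12 at 52874754 to 52877256, encodes a lysosomal glycoprotein that is abundant in macrophages and present at low levels in other cells. It had 24, 11 and 9 reads in heat, against 14, 15 and 35 reads in controls, or 1.19, 0.510 and 0.275 CPM in heat and 0.934, 0.654 and 1.73 CPM in controls. Control 3 was highest, but heat 1 lay above control 1 and control 2. The mean was 0.660 ± 0.478 CPM in heat and 1.11 ± 0.560 CPM in controls (SD, n = 3 each), and the log2 fold change of -0.77 ± 0.67 did not pass (edgeR adjusted p = 0.435).

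The division of the marker reads among the genes restates the same counts as shares, so it is not a separate result. Read shares depend on gene length, so only the share of 1 gene is compared between libraries. LYZ took 19.1, 6.45 and 18.6% of the reads of the 10 genes in heat 1, 2 and 3, and 13.7, 70.7 and 72.7% in control 1, 2 and 3. The Wilson 95% intervals were 67.5 to 73.6% in control 2 and 70.3 to 74.8% in control 3, and 6.81 to 25.7% in control 1. CD14 took 50.6, 67.7 and 53.5% in heat, and 52.9, 3.05 and 2.26% in controls. In CPM, CD14 itself lay between 0.702 and 2.24 over the 6 libraries, and its share was small in control 2 and control 3, where LYZ had 602 and 1092 reads.

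**Figure D2:**
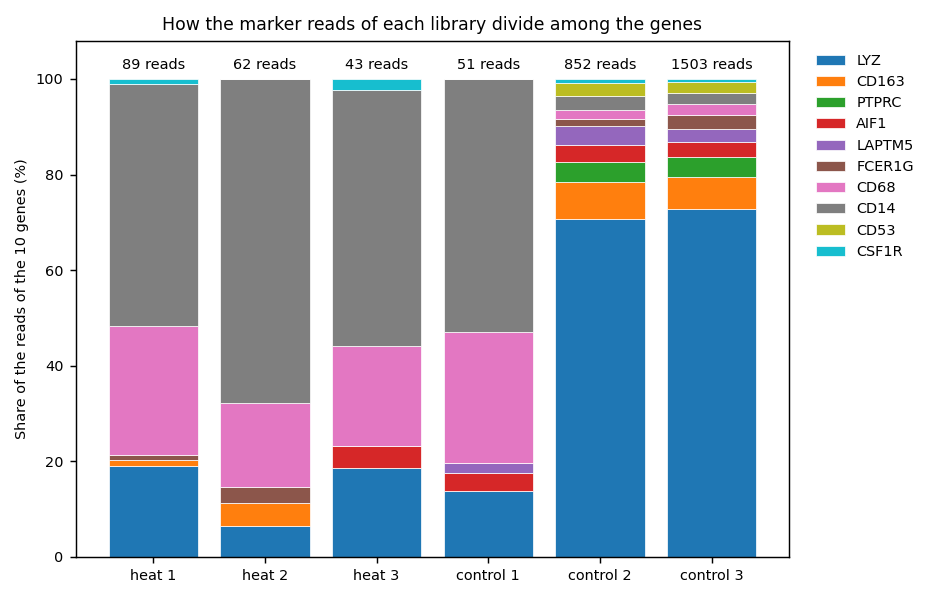
Share of the reads of the 10 marker genes (%, linear axis from 0) that each gene took, by library, heat on the left and control on the right, with the number of reads above each bar. The LYZ part is 6.45 to 19.1% in the 3 heat libraries (43 to 89 reads in all) and 13.7% in control 1 (51 reads), against 70.7 and 72.7% in control 2 and control 3 (852 and 1503 reads).

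The summed marker level differed between control 2 and control 3. The summed reads of the 10 genes, per scaled library, were 2.0 times as high in control 3 as in control 2 (95% exact conditional interval 1.84 to 2.18, counting error only). The ratio was 2.06 for LYZ (1.86 to 2.28), 1.74 for CD163 (1.26 to 2.41), 2.08 for PTPRC (1.35 to 3.23) and 1.44 for LAPTM5 (0.894 to 2.32). FCER1G had the highest ratio, at 3.49 (1.87 to 6.90). The interval of each of the 10 genes included the ratio of the sum. LYZ made up 70.7 and 72.7% of the summed reads in control 2 and control 3, and most other intervals were wide, so equal proportions are not shown. The interval of the sum excluded 1, while those of LAPTM5, CD14, CD53 and CSF1R included it, and the spread between cultures is not part of these intervals.

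The question of the series, which genes respond to heat, can be put to these genes only in part, because 3 of the 10 (LYZ, CD68 and CD14) passed the filter of the edgeR fit, which asks for about 10 reads in at least 3 libraries. The other 7 reached that in control 2 and control 3 at most. Of these 3, LYZ was called lower in heat, none was called higher, and CD68 and CD14 did not pass. By unadjusted p under 0.05, edgeR had 1 lower and 0 higher. DESeq2 called 1 lower and 0 higher, and limma-voom 0 in either direction. Over all 14242 tested genes, 11% were called, 956 (6.71%) higher and 615 (4.32%) lower, and DESeq2 and limma-voom called 12.6% and 4.39% lower. With scaling by library totals alone the split was 1583 higher and 416 lower, and the median log2 fold change of all genes moved to 0.17, against 0.05 with TMM. The median of the 3 tested marker genes was -0.77.

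Fitted without the filter, all 10 genes could be tested, and 3 were called lower in heat, AIF1 (edgeR adjusted p = 0.00739), LAPTM5 (0.00817) and CD53 (0.0249). The edgeR adjusted p was 0.0515 for PTPRC, 0.0527 for FCER1G, 0.0686 for CD163, 0.118 for LYZ and 0.129 for CSF1R, none of which passed. The share called lower over all 25766 identifiers in that fit was 3.3%. AIF1, LAPTM5 and CD53 had 0 to 2 reads in control 1 and in each heat library, so their calls rest on control 2 and control 3. Without control 1 and with the filter, LYZ, CD163, PTPRC, AIF1, LAPTM5, FCER1G and CD53 were called lower (edgeR adjusted p between 0.00579 and 0.0220), beside 12.3% of all genes tested. Of these 7 genes, all but LYZ reached the filter through control 2 and control 3 alone, so their number supports nothing. Without heat 3 and with the filter, edgeR called 0 of 9 tested, with 5 lower at an unadjusted p under 0.05. There too CD163, PTPRC, AIF1, LAPTM5, FCER1G and CD53 reached the filter through control 2 and control 3 alone, so this number supports nothing either. Without control 2 or control 3 edgeR called 0 of 3, with 1 lower at an unadjusted p under 0.05. The shares of all genes called lower in these fits were 17.7% without heat 3 and 0% without control 2 or control 3, and 0% also without heat 1 or heat 2. In the other fits tried, this share was 5.19% with RLE factors, 2.92% with library totals, 9.13% with the replicate number as a block, 38.4% without control 1 and heat 3, 6.36 and 6.25% on the normalized values with a pseudocount of 1 and 0.5, and 4.92% on recovered reads. With neither a filter nor 1 of the libraries it was 2.01, 2.17 and 10.3% without heat 1, 2 and 3 and 7.97, 2.16 and 2.32% without control 1, 2 and 3.

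**Figure D3:**
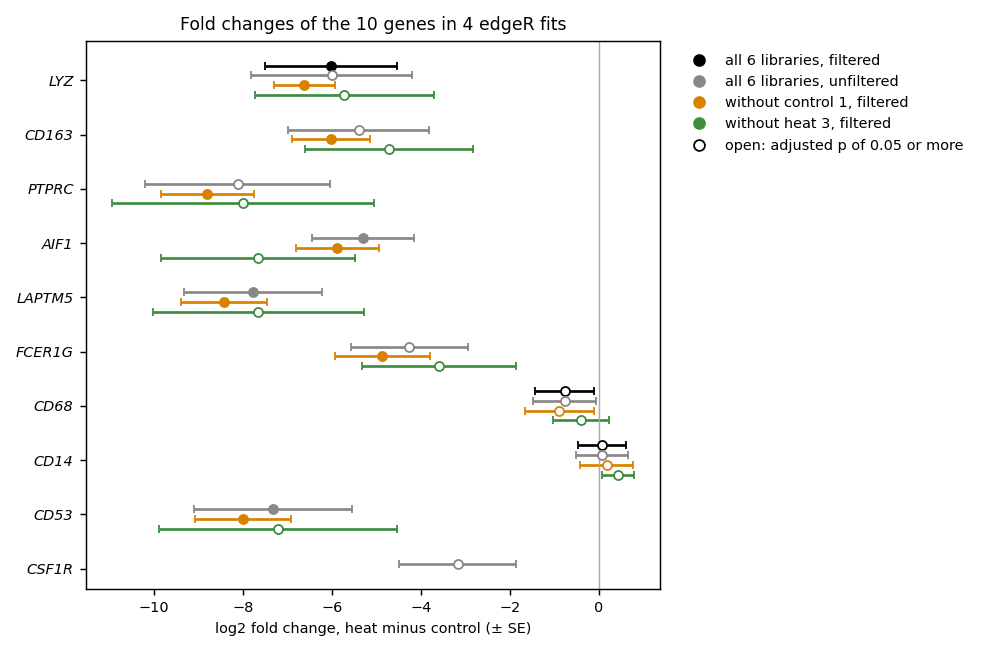
Log2 fold change (heat minus control, with SE) of the 10 marker genes in 4 edgeR fits, with filled points for an adjusted p under 0.05 and open points otherwise. LYZ is filled with all 6 libraries (-6.01) and without control 1 (-6.62) and open without heat 3 (-5.72), CD14 and CD68 lie near 0, and the size of the values for PTPRC, LAPTM5 and CD53, which had no read in heat, depends on the prior count of the fit.

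Some other genes of macrophages had their reads in the same libraries, and others did not. Of 30 listed genes 24 matched a symbol, and of these 8, 6 and 6 had at least 10 reads in heat 1, 2 and 3, against 6, 16 and 15 in control 1, 2 and 3. The 3 chains of complement C1q, which tissue macrophages secrete, were C1QA with 0, 2 and 0 reads in heat and 0, 59 and 85 reads in controls, C1QB with 0 reads in each heat library and 0, 42 and 88 reads in controls, and C1QC with 0 reads in each heat library and 0, 61 and 128 reads in controls. VSIG4, a complement receptor of resident macrophages, had 0 reads in each heat library and 0, 24 and 41 reads in controls. MPEG1, a pore-forming protein of phagocytes, had 0 reads in each heat library and 0, 99 and 164 reads in controls. By contrast, MRC1 had 23, 30 and 21 reads in heat and 8, 34 and 43 reads in controls. ITGAM had 7, 8 and 3 reads in heat and 0, 3 and 3 reads in controls, and SIGLEC1 and CX3CR1 had no read in any library. These genes were named after their values were seen, and all but MRC1 were below the filter.

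Of the 7 listed macrophage genes with enough reads, CD86 and TLR4 fell, none rose and 5 did not pass. Over all genes tested, 4.32% were called lower and 6.71% higher, and the list was chosen with earlier results of these data known. The median log2 fold change of the 7 was -1.27, beside 0.05 over all genes tested. CD86, a co-stimulatory ligand for T cells, had 0.896, 0.603 and 1.28 CPM in heat, against 3.20, 5.67 and 5.89 CPM in controls (log2 fold change -2.39 ± 0.46, edgeR adjusted p = 0.0325). TLR4, the lipopolysaccharide receptor, had 2.04, 2.04 and 1.40 CPM in heat, against 3.07, 11.6 and 9.30 CPM in controls (-2.13 ± 0.53, edgeR adjusted p = 0.0456). In both genes control 1 was the lowest control but lay above every heat library, with 48 reads for CD86 and 46 for TLR4, whereas control 1 held 0 to 7 reads of each of the 8 marker genes. Some listed genes went another way. SPI1, the transcription factor PU.1 of myeloid cells, had 24, 25 and 19 reads in heat and 10, 12 and 22 reads in controls, and NCF1, a subunit of the phagocyte oxidase, had 184, 239 and 33 reads in heat and 29, 11 and 20 reads in controls (edgeR adjusted p = 0.0846).

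Of 20 genes expressed across leukocytes, 6 were tested and none passed in either direction. LCP1, an actin-bundling protein, came closest, with 0.796, 1.16 and 2.93 CPM in heat and 2.74, 12.8 and 17.0 CPM in controls (edgeR adjusted p = 0.0570). PTPN6, a phosphatase, had 3.53, 4.73 and 2.63 CPM in heat and 1.60, 1.18 and 1.39 CPM in controls, the reverse order with no overlap, and did not pass (edgeR adjusted p = 0.0610). VAV1, a signalling protein of blood cells, had 0 reads in each heat library and 0, 12 and 28 reads in controls. The summed level of the 20 genes was 9.36, 11.4 and 8.61 CPM in heat and 6.47, 26.1 and 38.6 CPM in controls.

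Many, but not all, listed lymphocyte genes were at or near 0 in every library. CD3E, CD2, CD5, LCK and PRF1, genes of T and NK cells, and MS4A1 and CD22, genes of B cells, had no read in any library. CD3D had at most 1 read in a library and CD8A at most 2. Of the 11 matched T and NK cell genes, CD247, the zeta chain of the T cell receptor, was the only one tested, with 3.63, 3.90 and 9.77 CPM in heat and 2.33, 6.84 and 5.79 CPM in controls (edgeR adjusted p = 0.809). NKG7 had 0 reads in each heat library and 1, 3 and 5 reads in controls. Of the 8 B cell genes, JCHAIN was the only one tested, at 1.83 ± 0.585 CPM in heat and 1.84 ± 0.442 CPM in controls (SD, n = 3 each; edgeR adjusted p = 0.992). CD79A, part of the B cell receptor, had 33, 48 and 8 reads in heat and 5, 5 and 3 reads in controls.

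**Figure D4:**
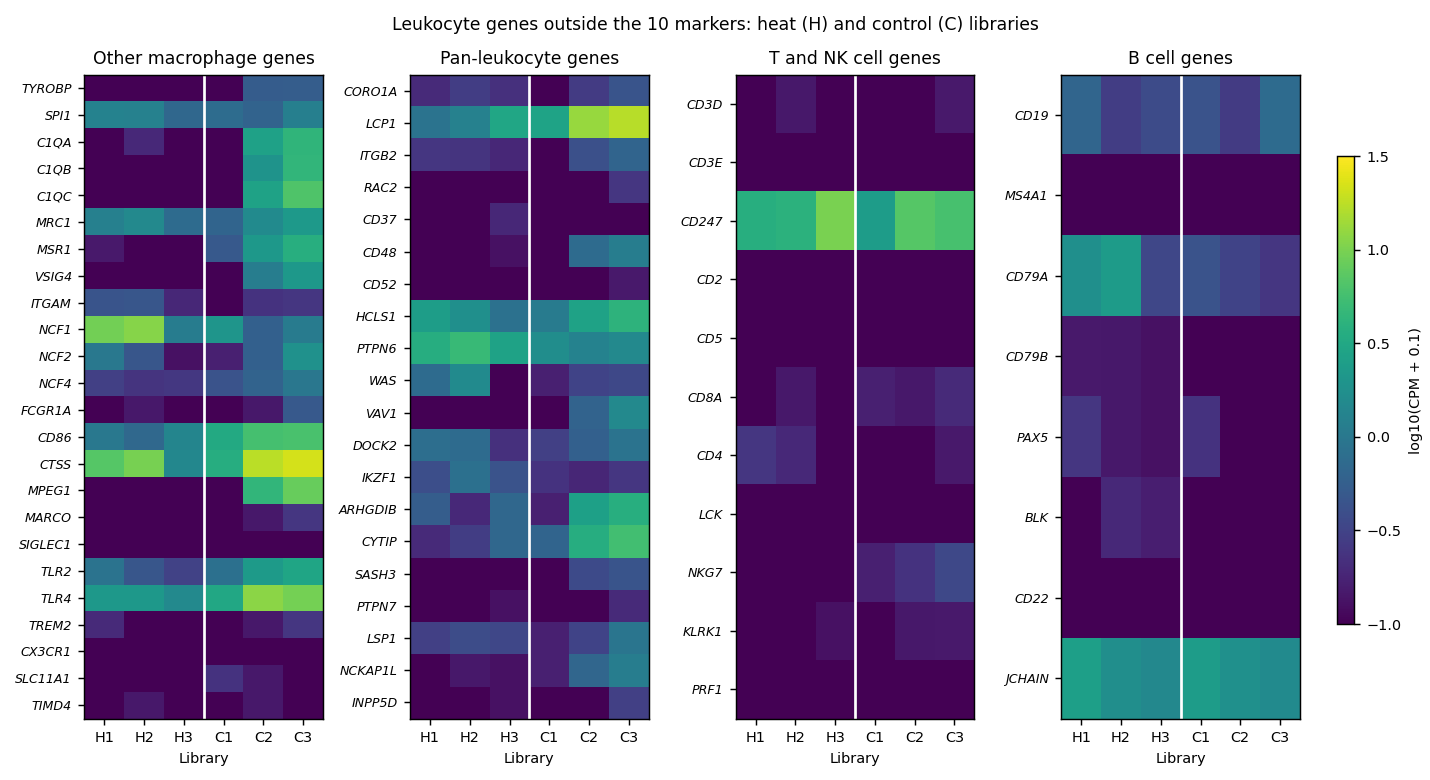
Level of leukocyte genes outside the 10 markers, as log10(CPM + 0.1) in colour, with genes in rows and libraries in columns (H1 to H3 heat, C1 to C3 control, a white line between the groups). C1QA, C1QB, C1QC, MPEG1, VSIG4 and MSR1 are light in C2 and C3 and dark elsewhere, with C1QC at 2.66 and 6.34 CPM in C2 and C3, and most T, NK and B cell genes are dark in all 6 libraries.

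Of the 7 matched genes of neutrophils and mast cells, HDC, which makes histamine, was tested and rose in heat, beside 6.71% of all genes tested. HDC had 4.68, 7.10 and 1.86 CPM in heat and 1.20, 0.654 and 0.594 CPM in controls (edgeR adjusted p = 0.0430). S100A12 and S100A8, calcium-binding proteins of neutrophils and monocytes, had 0 reads in each heat library, against 0, 55 and 46 reads for S100A12 and 0, 14 and 15 reads for S100A8 in control 1, 2 and 3. MPO, ELANE and MS4A2, which mark neutrophil granules and mast cells, had no read in any library. Among 6 matched genes of MHC class II, which presents antigen, 3 were tested and none passed. CD74, the class II chaperone, had 4.38, 3.94 and 0.397 CPM in heat and 0, 0.872 and 1.78 CPM in controls (edgeR adjusted p = 0.332), and SLA-DQB1 had 2.69, 2.83 and 0.305 CPM in heat and 0.0667, 0.828 and 1.93 CPM in controls (edgeR adjusted p = 0.512). SLA-DMB, part of the molecule that loads class II with peptide, had 0, 0.139 and 0.244 CPM in heat and 0.667, 1.22 and 1.44 CPM in controls, with no overlap and a negative fold change, and came closest to passing (edgeR adjusted p = 0.0553).

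Of 9 matched growth factors and attractants of macrophages and monocytes, 4 were tested, of which CCL2 fell and 3 did not pass. Over all genes tested, 4.32% were called lower. CCL2 had 39.0, 38.2 and 71.7 CPM in heat, against 577, 1570 and 1290 CPM in controls (log2 fold change -4.53 ± 0.57, edgeR adjusted p = 0.0266). It was thus high in control 1, where all marker genes but CD14 and CD68 had 0 to 7 reads. CSF1, a ligand of the CSF1R receptor, had 171, 157 and 20.0 CPM in heat and 54.3, 6.32 and 7.82 CPM in controls (log2 fold change 2.35 ± 1.04, edgeR adjusted p = 0.154). Its lowest values were in control 2 and control 3, where CSF1R had 7 and 11 reads. IL34, the other ligand, had 7, 19 and 4 reads in heat and 2, 9 and 12 reads in controls.

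Markers of other cells also moved with these libraries. The summed level of 9 stroma and theca genes, led by COL1A2 and COL3A1, was 87770, 79230 and 28060 CPM in heat and 59070, 7410 and 6686 CPM in controls, so control 2 and control 3 were lowest, and of 7 tested none passed. The 16 matched granulosa cell genes summed to 1236, 1069 and 1061 CPM in heat and 1408, 640 and 580 CPM in controls, and of 11 tested BMPR1B fell (26.7 ± 2.30 CPM in heat and 62.6 ± 13.9 CPM in controls, SD, n = 3 each; edgeR adjusted p = 0.0421) and 10 did not pass. The 7 matched endothelial genes summed to 12.5, 11.4 and 6.08 CPM in heat and 9.87, 9.07 and 10.1 CPM in controls, with PECAM1 at 8.62 ± 2.97 and 8.59 ± 0.857 CPM (edgeR adjusted p = 0.998), and CDH5 with no read in any library. The part of these differences in the marker levels was not tested. Beside the call of BMPR1B, 4.32% of all genes tested were called lower.

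The tested genes most alike in pattern to the mean log2 CPM of LYZ, CD68 and CD14 over the 6 libraries were TLR2, DNAH12, ZNF566, HPS6, ZNF879, ZNF260, GPNMB and TMEM86A, with Pearson r between 0.948 and 0.985. TLR2, a receptor for bacterial lipoproteins, had 0.796, 0.371 and 0.214 CPM in heat and 0.734, 2.22 and 2.82 CPM in controls. GPNMB, a glycoprotein abundant in macrophages and melanocytes, had 11.7, 12.2 and 2.66 CPM in heat and 9.27, 59.3 and 80.5 CPM in controls. With all 10 genes in the mean, a choice made after seeing the data, the leading genes were RANBP3L, TMEM86A, ADGRV1, BST2, JAM2, ZNF260, CDC25A and NMI (r between 0.977 and 0.993). BST2, an interferon-induced antiviral membrane protein, had 5.72, 4.97 and 4.86 CPM in heat and 6.20, 51.4 and 50.9 CPM in controls, and NMI, an interferon-induced partner of STAT proteins, had 2.79, 2.74 and 3.02 CPM in heat and 2.94, 20.1 and 19.6 CPM in controls. Each r describes 6 libraries, of which control 2 and control 3 were both high and correlated at 0.990 over all tested genes.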

How the data were processed

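The authors' deposited table of raw read counts per Ensembl gene was used, with 1 column per library and groups taken from the labels. Per the submitters' processing notes, the tools were FastQC 0.11.4, Trim Galore and STAR, and the build was Sscrofa11.1. No source used here names the counting tool. Values of the second deposited table are a normalized signal, which the authors obtained as counts over 1 size factor per library; 100% of its values came back as whole reads within 1e-06, and edgeR on these reads called 1631 genes. It holds 13298 genes, among them 2 of the 10 markers, CD14 and CD68.

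Symbols came from a reference table (15623 of 35670 identifiers). Genes were filtered with filterByExpr (minimum count 10) and heat was tested against control with edgeR 4.0.16 in R 4.3.3 (quasi-likelihood F test, two-sided, TMM, robust), p-values adjusted over all 14242 tested genes and called below 0.05. The SE follows from the fold change and the F statistic. The same fit was also run on simulated counts, and its result is not given here. Alternatives used limma 3.58.1 and DESeq2 1.42.0. The members and lists were chosen with earlier results of these data known. Beside the 10 markers, the genes named are, per list, up to 3 called genes by absolute log2 fold change, or the 2 of highest mean where none was called, and the 8 genes most alike in pattern; any other gene was named after its values were seen. Sequences were not used here.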

Additional observations from a re-analysis of the deposited data

How the results depend on the processing

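The number of genes called was 1571, and it was 2457 without a filter, 928 with a filter of 10 CPM in 3 libraries, 3910 with DESeq2, 12142 without control 1 and heat 3 together, and between 0 and 5530 with 1 library left out (0 without control 2 and without control 3, where edgeR had 3165 and 3303 genes at an unadjusted p under 0.05, and 7 and 6 without heat 1 and heat 2). Without a filter and with 1 library left out, an alternative chosen after seeing the data, it lay between 1563 and 5489 (5432 without control 1). The cause of these changes was not tested.

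Of the 10 markers, 1 was called lower. The count was 3 without a filter, beside 3.3% of all identifiers. It was 7 without control 1 and heat 3, beside 38.4% of all genes tested. Of these 7, all but LYZ reached the filter through control 2 and control 3 alone, so their number supports nothing. The count was 0 with the filter of 10 CPM (none tested) and with limma-voom. It was also 0 on the normalized values with a pseudocount of 1 or 0.5 and on the recovered reads. LYZ is absent there, and only CD14 and CD68 were tested. With 1 library left out the count lay between 0 and 7, beside 0 to 17.7% of all genes, and the same limit holds for the 7. It lay between 1 and 8 when the filter was dropped too, beside 2.01 to 10.3%. No marker was called higher in any alternative run. For LYZ the log2 fold change was -6.01 without a filter (adjusted p = 0.118) and -4.82 with limma-voom, and both missed the threshold. It lay between -6.91 and -5.05 with 1 library left out, and between -6.88 and -4.99 when the filter was dropped too (-5.72 and not called without heat 3). It stayed called with RLE factors, library totals, DESeq2 and without control 1. CD14 turned negative with limma-voom (-0.11) and with the normalized values (-0.047 with a pseudocount of 1 and -0.051 with 0.5), and lay between -0.21 and 0.43 with 1 library left out (between -0.22 and 0.43 without the filter, with -0.065 without heat 2 and -0.12 without control 2). CD68 stayed negative and uncalled in every alternative run. The summed marker level, heat minus control, was -35.4 CPM, and it was -8.94 CPM without LYZ, -52.9 CPM without control 1 and -17.4 CPM without control 3; the control SD is as large as the difference itself.

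With the replicate number as a block, 3404 genes and 0 markers were called, LYZ stood at -5.31 (edgeR adjusted p = 0.206) and CD14 at -0.036. The deviations of same-numbered libraries correlated at 0.299, -0.232 and 0.223, and heat 2 correlated best with control 1, so the numbers were not taken to pair the libraries. Leaving out a library lowers the number of libraries the filter asks for, which is why 9 markers are then tested in some fits. The 7 markers below the filter had 18 to 167 reads over all controls, nearly all in control 2 and control 3, and too few libraries with reads for the filter.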

Other observations

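A search by reads alone, with thresholds chosen after seeing the data, asked which identifiers had at least 50 reads in both control 2 and control 3 and at most 3 in each other library. It returned 10 identifiers, 7 with a symbol, and CD163 was the only one of the 10 markers among them. The others with a symbol were MPEG1, C1QC, C1QA, PLPPR4 and 2 whose names in the reference table differ from those in the lists. HLA-DRA, the alpha chain of an MHC class II molecule, stood at 0 CPM in each heat library and at 0.133, 2.22 and 5.30 CPM in control 1, 2 and 3. GP91-PHOX, the catalytic subunit of the phagocyte oxidase, stood at 0 CPM in each heat library and at 0, 2.27 and 3.27 CPM in controls. PLPPR4, known from neurons as a phospholipid phosphatase-related protein, was about level between the 2 libraries, at 2.75 CPM in control 2 and 2.57 CPM in control 3.

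CTSS, a lysosomal protease of antigen-presenting cells, was present in every library, at 6.82, 9.51 and 1.34 CPM in heat and 3.54, 17.2 and 21.8 CPM in controls (edgeR adjusted p = 0.294).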
